A study of Mus musculus with 11 samples.

Results

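The TAM receptors are the receptor tyrosine kinases Axl, Mertk and Tyro3, and their ligands are growth arrest-specific 6 (Gas6) and protein S (Pros1). These 5 genes were taken by symbol from the 31053 genes counted by single-nucleus RNA sequencing of frozen cortex from 11 mice, and all 5 were found. The labels give the mice as female, whereas the study's methods name male animals for RNA sequencing, and the sex is therefore left as unsettled here. The study asked what microglial NF-κB does in mice that carry the P301S human tau transgene, which the PS19 line expresses from the mouse prion protein promoter. The 4 NT mice (ikbkb+/+, no tau transgene) were 10.03, 10.03, 10.85 and 9.8 months old, and the 3 P301S mice (ikbkb+/+;P301S+) were 9.15, 10.03 and 10.75 months old. In the 2 IKKβ-null P301S mice (ikbkb-/-;P301S+, 8.39 and 9.15 months) the floxed Ikbkb gene had been deleted by a tamoxifen-dependent Cre recombinase expressed from the Cx3cr1 locus, which is active in microglia and in macrophages at the borders of the brain. In the 2 IKKβ-CA P301S mice (ikbkbCA;P301S+, 10.85 and 9.8 months) the same Cre switched on a constitutively active IKKβ inserted at Rosa26. All groups, controls included, received tamoxifen, and the NT and P301S mice carried no Cre, so Cre and the change of IKKβ cannot be told apart. The mice came from 2 breeding lines: the floxed Ikbkb line gave 2 NT, 2 P301S and both IKKβ-null mice, and the active IKKβ line gave 2 NT mice, 1 P301S mouse and both IKKβ-CA mice.

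TAM receptors recognise phosphatidylserine, a lipid that dying cells and stripped synapses expose, through Gas6 or protein S, which bind the lipid at one end and the receptor at the other. Mertk is known as the receptor with which microglia and astrocytes engulf such debris, Axl as the receptor that reactive phagocytes add, and Tyro3 as the family member of neurons and myelinating cells. Gas6 activates all 3 receptors, whereas protein S, which is also an anticoagulant of blood plasma, acts on Tyro3 and Mertk. Signals from these receptors also dampen cytokine and interferon responses. In mouse models of neurodegeneration Axl is counted among the genes of disease-associated microglia (DAM), a state in which Apoe, Lpl, Itgax and others are raised.

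Axl (ENSMUSG00000002602) lies at chr7:25757273-25788705 on the minus strand of GRCm38, Mertk (ENSMUSG00000014361) at chr2:128698956-128802894 and Tyro3 (ENSMUSG00000027298) at chr2:119797733-119818104, both on the plus strand. Gas6 (ENSMUSG00000031451) lies at chr8:13465374-13494490 on the minus strand and Pros1 (ENSMUSG00000022912) at chr16:62854307-62929346 on the plus strand. Reads from introns were counted together with reads from exons. Mertk overlaps the antisense RNA gene Gm14011 and Gas6 overlaps Tmem255b on the opposite strand, and how reads of these overlaps were assigned is not given in the sources used here. The 250 bases before the start of Axl and of Gas6 are printed from RefSeq (GRCm38.p6), each 5′ to 3′ on the gene's own minus strand, because these were the members whose counts passed the test between genotypes below. Axl is chr7:25788734-25788983 and Gas6 is chr8:13494536-13494785, and capitals mark a GC box, GGGCGG or its reverse complement CCGCCC.
Axl: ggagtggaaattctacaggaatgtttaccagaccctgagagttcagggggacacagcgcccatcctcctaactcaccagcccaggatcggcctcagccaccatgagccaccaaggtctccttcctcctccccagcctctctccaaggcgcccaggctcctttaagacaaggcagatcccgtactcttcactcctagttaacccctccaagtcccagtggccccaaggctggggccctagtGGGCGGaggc
Gas6: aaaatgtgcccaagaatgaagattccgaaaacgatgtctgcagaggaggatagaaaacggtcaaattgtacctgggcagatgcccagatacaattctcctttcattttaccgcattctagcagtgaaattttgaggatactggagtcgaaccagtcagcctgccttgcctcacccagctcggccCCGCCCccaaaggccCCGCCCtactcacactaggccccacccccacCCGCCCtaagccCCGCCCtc
The window held 1 GC box in Axl, 3 in Mertk, 3 in Tyro3, 4 in Gas6 and 5 in Pros1, and 32.7% of the 32851 promoters in the same table held at least 1. TATAAA was in none of the 5 windows and in 12.4% of all promoters, and TGANTCA was in none of the 5 and in 6.75% of all, on either strand. A sequence matching the κB motif was found only in the Tyro3 window and in 3.90% of all promoters. The Tyro3 window, chr2:119799264-119799513, precedes a RefSeq start that lies inside the gene span given above, so it is not upstream of the start of that span.

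After filtering, 103065 nuclei were used, and 11 cell types were named from markers with the 5 genes left out of the clustering. The microglia-like cluster held 4485 nuclei, 193 to 732 per mouse, with 387450 to 1640083 UMIs (unique molecules) per mouse, and all 8 microglia markers were raised in it. It includes 98 nuclei of a finer cluster that was left unnamed, led by Skap1, Gm2682 and Ptprc, genes known from lymphocytes and other leukocytes, which held 0 Axl and 9 Gas6 UMIs. Without them the differences between IKKβ-CA P301S and NT mice given below were 3.61 for Axl (edgeR adjusted p = 0.000168) and -1.23 for Gas6 (adjusted p = 0.0147). Summed counts of 12 neuronal transcripts made up 15647 to 23107 CPM of the microglia-like UMIs (CPM, UMIs scaled to a sum of 1000000 per mouse and type). Any pair of libraries shared 15 to 45 cell barcodes, at most 0.425% of the smaller library. Ikbkb in microglia-like nuclei stood at 123 to 154 CPM in NT, 133 to 152 CPM in P301S, 112 and 113 CPM in IKKβ-null P301S and 151 and 165 CPM in IKKβ-CA P301S mice. Both IKKβ-null mice were thus the lowest of the 11, but counts over the whole gene do not show whether an exon was deleted.

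Each receptor had its own distribution over cell types, and levels are given as CPM summed per mouse and type, mean ± SD over mice. Mertk was highest in microglia-like nuclei (2042 ± 236 CPM, n = 11) and next in astrocyte-like nuclei (1471 ± 256 CPM, n = 11). The step between them was 0.48 ± 0.22 (SD) on the log2(CPM + 1) scale and had the same direction in 11 of 11 mice (two-sided exact sign-flip permutation test, adjusted p = 0.00439 over 45 steps between neighbouring types). This p comes from the smallest value that 11 mice allow, 0.000977. Mertk then fell by 2.86 log2 units to mural-like nuclei (208 ± 60.0 CPM, adjusted p = 0.00439, exact test), followed by oligodendrocyte precursor-like (208 ± 125 CPM) and endothelial-like nuclei (165 ± 39.2 CPM, n = 8), and neither step between these neighbours passed. Fibroblast-like nuclei held 66.5 ± 22.1 CPM and oligodendrocyte-like nuclei 10.8 ± 3.85 CPM. In the neurons Mertk was near the bottom of its range, at 6.08 CPM in inhibitory, 3.08 CPM in striatal projection and 2.71 CPM in excitatory neuron-like nuclei. Cells with a known role in engulfing debris therefore held the most Mertk counts, and neurons the fewest.

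Over all 11 mice, Axl had its highest mean in mural-like nuclei (pericytes and smooth muscle). Endothelial-like nuclei, also of vessels, held only 7.75 ± 9.72 CPM (n = 8, 8 UMIs in all). Axl stood at 97.7 ± 19.6 CPM in mural-like nuclei (136 UMIs) and at 56.3 ± 3.97 CPM in astrocyte-like nuclei. This step of 0.76 log2 units was seen in 11 of 11 mice (adjusted p = 0.00439, exact sign-flip permutation test). Fibroblast-like (43.8 ± 19.3 CPM), microglia-like (41.9 ± 43.5 CPM) and oligodendrocyte precursor-like nuclei (14.97 ± 4.47 CPM) followed, and no step between these neighbours passed the test. Over the 11 mice Axl ran from 3.56 to 119 CPM in microglia-like nuclei (597 UMIs in all), from 6.35 to 79.8 CPM in fibroblast-like nuclei (147 UMIs) and from 47.0 to 61.7 CPM in astrocyte-like nuclei. In the IKKβ-CA P301S mice microglia-like nuclei (106.4 CPM) were above mural-like nuclei (85.3 CPM), a difference that was not tested. Axl was nearly absent from excitatory neuron-like nuclei (0.196 CPM), striatal projection neuron-like (0.234 CPM), inhibitory neuron-like (0.454 CPM) and oligodendrocyte-like nuclei (0.631 CPM).

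Tyro3 was highest where Axl was scarce. It was highest in oligodendrocyte-like nuclei (103 ± 12.5 CPM), followed after a step of 0.92 log2 units by excitatory neuron-like nuclei (54.5 ± 8.75 CPM), with the same direction in 11 of 11 mice (adjusted p = 0.00439, exact test). Striatal projection neuron-like nuclei (52.1 ± 4.41 CPM) did not differ from the excitatory ones beyond their spread. A further step of 1.498 log2 units (adjusted p = 0.00439, exact test) led down to oligodendrocyte precursor-like nuclei (18.5 ± 5.70 CPM). From there to microglia-like (16.7 ± 5.60 CPM), inhibitory neuron-like (14.6 ± 4.12 CPM), astrocyte-like (13.7 ± 2.35 CPM) and fibroblast-like nuclei (12.4 ± 7.63 CPM) no step passed. Oligodendrocyte-like nuclei thus led in Tyro3 and were among the lowest types in Axl and in Mertk.

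The ligand Gas6 was spread widely, and Pros1 was not. Gas6 reached 212 ± 20.6 CPM in ependymal or choroid plexus-like nuclei (n = 3 mice with at least 20 such nuclei, not tested) and 110 ± 36.1 CPM in endothelial-like nuclei (n = 8). Microglia-like nuclei followed with 60.8 ± 25.5 CPM, and the step of 0.92 log2 units from endothelial-like nuclei missed the threshold (adjusted p = 0.0502, exact test, 7 of 8 mice). Inhibitory neuron-like (48.5 ± 6.20 CPM), astrocyte-like (44.6 ± 8.14 CPM) and excitatory neuron-like nuclei (35.1 ± 5.25 CPM) held Gas6 too, and oligodendrocyte-like nuclei the least (11.5 ± 2.80 CPM). Pros1 was highest in microglia-like nuclei (294 ± 64.7 CPM), ahead of endothelial-like nuclei by 2.00 log2 units in 7 of 8 mice (92.7 ± 60.1 CPM, adjusted p = 0.0502, exact test). Fibroblast-like (49.6 ± 15.8 CPM), mural-like (46.7 ± 18.4 CPM) and astrocyte-like nuclei (31.1 ± 8.79 CPM) followed, and no step between these neighbours passed. Further down, the Pros1 steps from oligodendrocyte precursor-like to oligodendrocyte-like and on to excitatory neuron-like nuclei passed (adjusted p = 0.00439 for each, exact test). The 3 neuron types held 4.79 to 6.04 CPM. Microglia-like nuclei therefore had the highest mean both of the receptor Mertk and of its ligand protein S.

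**Figure D1:**
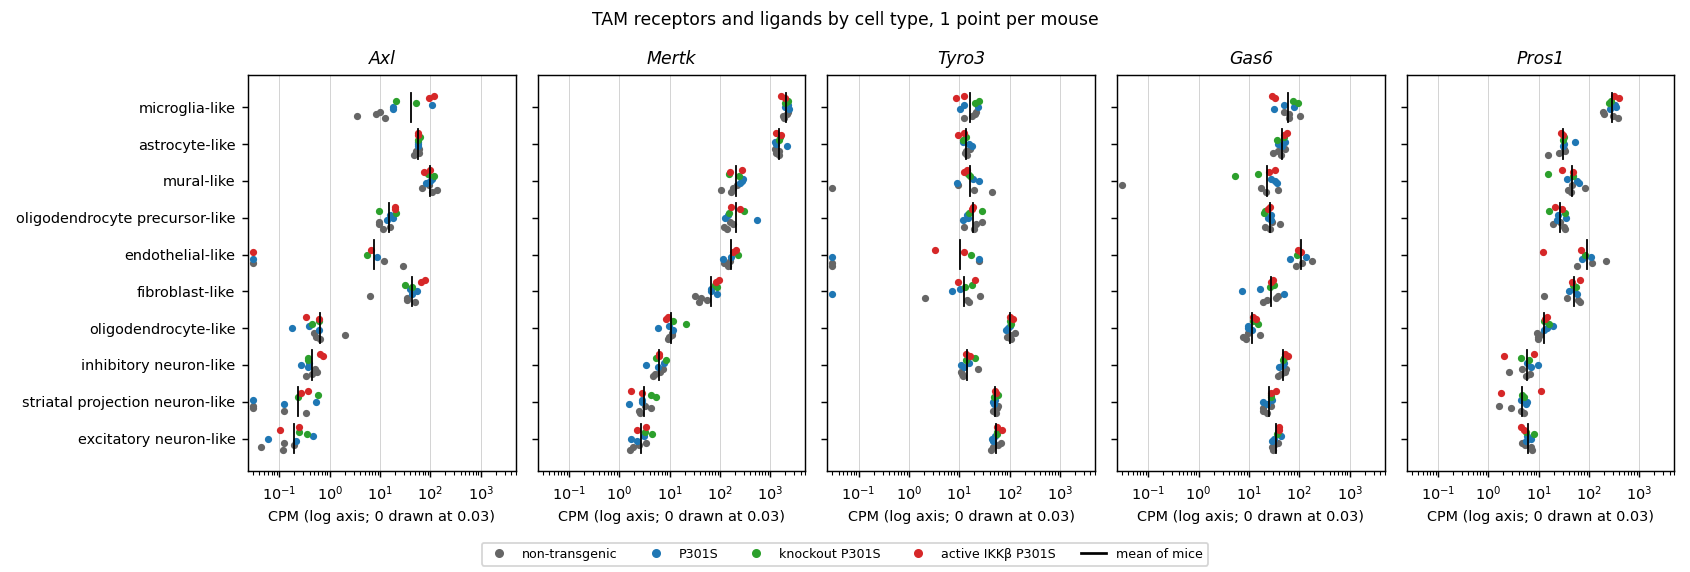
CPM (log axis, with 0 drawn at 0.03) of Axl, Mertk, Tyro3, Gas6 and Pros1 in each cell type, with one point per mouse coloured by genotype (knockout is IKKβ-null, active is IKKβ-CA) and a bar at the mean. Mertk and Pros1 peak in microglia-like nuclei (means 2042 and 294 CPM), Tyro3 in oligodendrocyte-like nuclei (103 CPM), and Axl in microglia-like nuclei spans 3.56 to 119 CPM while its astrocyte-like points lie between 47.0 and 61.7 CPM.

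Within the neurons, Tyro3 and Gas6 varied between clusters, described here without a test. Of 2 excitatory clusters that carry the upper-layer markers Cux2, Cux1, Rasgrf2, Calb1 and Lamp5, the larger had the highest Tyro3 level (71.3 ± 10.9 CPM, n = 11 mice) and the other, which also carries Rorb, 54.6 ± 6.95 CPM. Tyro3 was lowest in the inhibitory cluster that carries Pvalb, Kcnc2 and Tac1 (6.67 ± 2.11 CPM, n = 11). Gas6 stood at 78.1 ± 12.8 CPM in that Pvalb cluster, at 24.0 ± 4.997 CPM in the larger upper-layer cluster and at 37.6 ± 7.25 CPM in the other. It was lowest in an inhibitory cluster led by Cpa6 (15.8 ± 3.37 CPM, n = 5), whose Tyro3 level was 47.7 ± 10.8 CPM. Another excitatory cluster high in Gas6 (78.3 ± 15.8 CPM) carried the deep-layer markers Fezf2 and Bcl11b, and its Tyro3 level was 28.0 ± 6.92 CPM. Both clusters with the most Gas6 were thus below the mean Tyro3 level of excitatory neuron-like nuclei (54.5 CPM). Mertk stayed near the bottom in neuron clusters except an inhibitory one led by Dlx6os1, Nxph1 and Lgr5 (83.2 ± 49.8 CPM, range 13.9 to 146.2 CPM over 11 mice), in which 24.3% of the 867 nuclei came from 1 mouse. Of the 8 astrocyte markers, 5 were raised in this cluster as well (median 2921 UMIs per nucleus), and their part in its Mertk level was not tested.

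**Figure D2:**
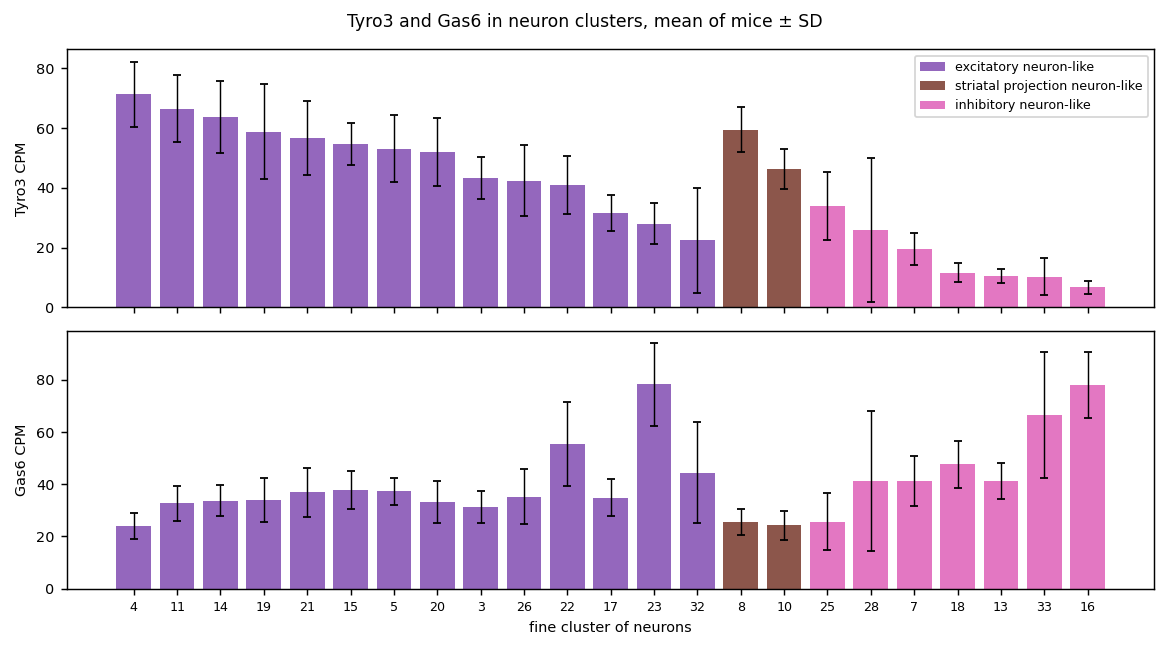
Mean CPM (bars) with SD over mice (error lines) of Tyro3 and Gas6 in the neuron clusters that had at least 20 nuclei in 6 or more mice. The larger upper-layer excitatory cluster has the tallest Tyro3 bar (71.3 CPM) and one of the shortest Gas6 bars (24.0 CPM), and the Pvalb cluster has the shortest Tyro3 bar (6.67 CPM) and a tall Gas6 bar (78.1 CPM).

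In microglia-like nuclei Axl, the receptor of reactive phagocytes, had the largest log2 difference of the 5 members in each of the 3 comparisons with NT mice. The NT mice held 5, 2, 4 and 7 Axl UMIs, or 13.3, 3.72, 8.42 and 10.1 CPM after scaling by trimmed means (TMM). The P301S mice held 18.9, 18.7 and 107.7 TMM-scaled CPM (7, 11 and 159 UMIs), the IKKβ-null P301S mice 52.8 and 21.1 (62 and 10 UMIs) and the IKKβ-CA P301S mice 95.6 and 120.7 (154 and 176 UMIs). Every mouse with the tau transgene was thus above every NT mouse, both IKKβ-CA mice were among the 3 highest, and the third P301S mouse, the 1 from the active IKKβ line, lay between them.

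Between IKKβ-CA P301S and NT mice Axl rose by 3.62 ± 0.53 (log2 fold change ± SE, n = 2 and 4, edgeR quasi-likelihood test, adjusted p = 0.000176), 1 of the 2 members of 5 that passed in this comparison, in which 330 of 8899 genes (3.71%) passed. The tau transgene, active IKKβ and Cre differ together here and cannot be told apart. In the fit of all mice Axl passed the low-count filter only through mice with the tau transgene. Its levels in NT mice, 3.56 to 12.6 CPM before TMM scaling, were too low to pass alone. Axl was also called in this comparison with that filter left out. Between P301S and NT mice the Axl difference was 2.79 ± 0.57 (n = 3 and 4) and missed the threshold (adjusted p = 0.0563, edgeR), which it passed with line as a covariate (2.87, adjusted p = 0.00143, where 0.337% of genes passed). In the fit without that covariate none of the 5 members passed, beside 4 of all 8899 genes (0.0449%). At an unadjusted p under 0.05 there was 1 member, Axl, among 738 of the 8899 genes, and DESeq2 passed no member either. That difference rests on 1 library: without the third P301S mouse it was 1.11 (adjusted p = 0.988), and without the first or the second it was 3.03 (adjusted p = 0.0108, beside 0.318% of genes passed) or 3.11 (adjusted p = 0.0171, beside 0.0665%).

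Axl between IKKβ-CA P301S and P301S mice was 0.83 ± 0.39 (n = 2 and 3, edgeR adjusted p = 0.543), and no member of 5 passed, against 132 of 8899 genes (1.48%). The members Axl, Mertk and Gas6 had an unadjusted p under 0.05 by edgeR, as did 782 of the 8899 genes, and DESeq2 passed no member. Left without the third P301S mouse, the same Axl difference was 2.50 (adjusted p = 0.000220, beside 2.3% of genes passed). The P301S mice then left are both of the floxed line and the IKKβ-CA mice both of the active line. Line and genotype thus cannot be told apart in that fit. Between IKKβ-null P301S and P301S mice Axl differed by -0.56 ± 0.47 (n = 2 and 3, edgeR adjusted p = 0.741) and by 1.14 without the third P301S mouse, so its sign was not stable. No gene of the 8899 passed in that comparison (0%, with 796 genes under 0.05 before adjustment in edgeR and none passed by DESeq2), so the members' 0 of 5 is no result about them. The IKKβ-null P301S mice differed from NT by 2.24 ± 0.65 in Axl (n = 2 and 4, edgeR adjusted p = 0.938), where again 0% of genes passed (414 genes under 0.05 before adjustment, none passed by DESeq2). Both IKKβ-null mice are of the floxed line, whereas the NT mice come from both lines. With line as a covariate a member was among the 3 genes that passed in this comparison.

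Axl was also compared within the breeding lines, after the data had been seen. In the active IKKβ line it rose by 3.50 ± 0.34 from the 2 NT to the 2 IKKβ-CA P301S mice (edgeR adjusted p = 6.19e-07), where 265 of 11797 genes (2.25%) passed. The single P301S mouse of that line was 3.50 log2 units above NT and -0.0013 from the IKKβ-CA P301S mice, values of 1 mouse for which no test is given. In the floxed line Axl was 1.27 ± 0.68 higher in the 2 P301S than in the 2 NT mice (adjusted p = 0.999) and 1.14 ± 0.44 higher in the IKKβ-null than in the P301S mice (adjusted p = 0.448). From NT to IKKβ-null mice of that line it rose by 2.40 ± 0.54 (adjusted p = 0.0449), where 14 of 7873 genes (0.178%) passed. Among the P301S mice age moves with line, since those of the floxed line were 9.15 and 10.03 months old and that of the active line 10.75 months. The part of age was not tested within lines. The 4 highest Axl values also came from the 4 libraries with the most microglia-like UMIs (1216516 to 1640083 UMIs from 562 to 732 nuclei, against 387450 to 713432 UMIs from 193 to 332 nuclei). With every nucleus thinned to at most 1000 UMIs Axl differed by 3.52 between IKKβ-CA P301S and NT mice (adjusted p = 0.000127) and by 2.57 between P301S and NT mice (adjusted p = 0.0757, edgeR). Thinning leaves the number of nuclei per mouse as it was, and the part of that number in the Axl values was not tested.

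**Figure D3:**
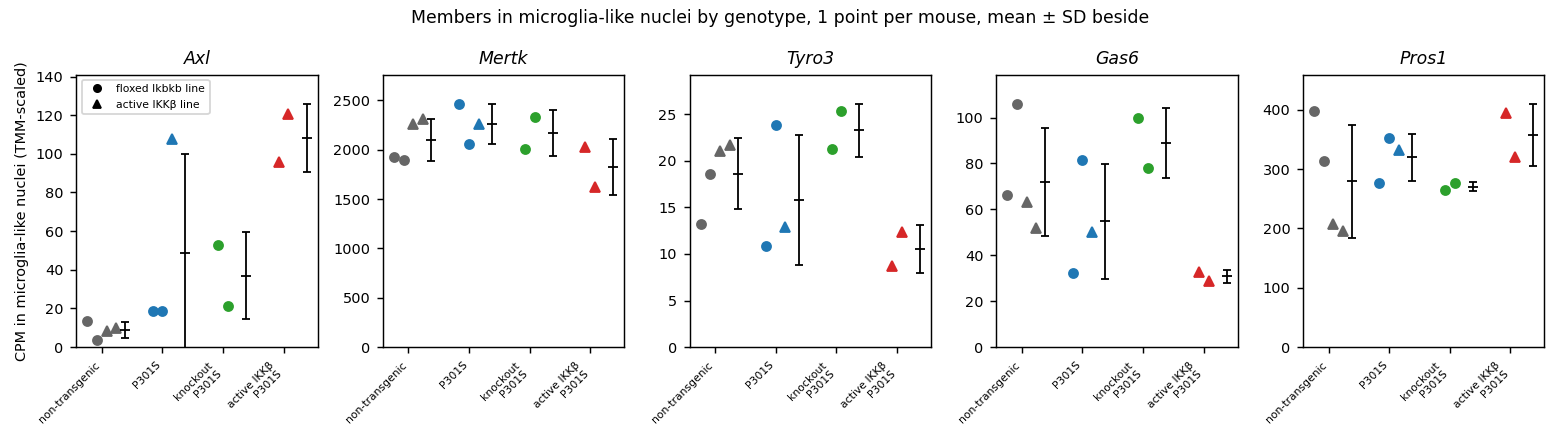
TMM-scaled CPM of each member in microglia-like nuclei, one panel per gene and one point per mouse (circles, floxed Ikbkb line, triangles, active IKKβ line), with the mean and SD of each genotype (bars cut at 0). In the Axl panel the 4 NT mice lie at 3.72 to 13.3 CPM, and the triangle among the P301S mice (107.7 CPM) lies between the IKKβ-CA mice (95.6 and 120.7 CPM).

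Mertk, the main phagocytic receptor of microglia, stayed within a narrow range. The NT mice held 1927, 1897, 2256 and 2312 TMM-scaled CPM and the P301S mice 2466, 2056 and 2260. The IKKβ-null P301S mice held 2006 and 2331 and the IKKβ-CA P301S mice 2024 and 1625. The groups overlapped, apart from 1 IKKβ-CA mouse that was the lowest of all. The log2 difference was 0.11 ± 0.12 between P301S and NT (adjusted p = 0.874), -0.06 ± 0.15 between IKKβ-null P301S and P301S (adjusted p = 0.920), -0.31 ± 0.15 between IKKβ-CA P301S and P301S (adjusted p = 0.549) and -0.20 ± 0.14 between IKKβ-CA P301S and NT mice (adjusted p = 0.582, all edgeR). These SEs are the smallest among the 5 members, as 726 to 3336 Mertk UMIs were counted per mouse.

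Tyro3 was scarce in microglia-like nuclei, at 4 to 25 UMIs per mouse. TMM-scaled values were 13.3, 18.6, 21.04 and 21.6 CPM in NT, 10.8, 23.8 and 12.9 in P301S, 21.3 and 25.3 in IKKβ-null P301S and 8.69 and 12.3 in IKKβ-CA P301S mice. Both IKKβ-CA mice were below all NT mice, but the difference of -0.86 ± 0.38 did not pass (n = 2 and 4, edgeR adjusted p = 0.314). Oligodendrocyte-like, excitatory and striatal projection neuron-like nuclei held more Tyro3, and the 12 neuronal transcripts in these same nuclei stood at 18835 to 23107 CPM in NT and at 16426 and 18853 CPM in IKKβ-CA mice. Their part in the Tyro3 values was not tested.

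Gas6, the ligand of all 3 receptors, moved the opposite way to Axl in the IKKβ-CA mice. The NT mice held 66.3, 106.0, 63.1 and 51.9 TMM-scaled CPM (25, 57, 30 and 36 UMIs) and the P301S mice 32.4, 81.6 and 50.1 (12, 48 and 74 UMIs). The IKKβ-null P301S mice held 99.6 and 78.0 (117 and 37 UMIs) and the IKKβ-CA P301S mice 32.9 and 28.8 (53 and 42 UMIs). Both IKKβ-CA mice were below all NT and both IKKβ-null mice, and 1 P301S mouse lay between the 2 of them.

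Between IKKβ-CA P301S and NT mice Gas6 fell by 1.21 (SE 0.29, n = 2 and 4, edgeR adjusted p = 0.0163), the second of the 2 members that passed. The call was lost with line as a covariate (-0.96, adjusted p = 0.0975), with nuclei thinned to 1000 UMIs (-1.12, adjusted p = 0.0720), without the second NT mouse (-0.95, adjusted p = 0.0856), and without the first (-1.31, adjusted p = 0.0638) or the second IKKβ-CA mouse (-1.13, adjusted p = 0.125). Against P301S mice the difference was -0.85 ± 0.30 (adjusted p = 0.239), and the IKKβ-null mice differed from P301S mice by 0.71 ± 0.28 (adjusted p = 0.496). Within the lines the differences were -0.89 ± 0.28 for IKKβ-CA P301S against NT (adjusted p = 0.118) and 0.58 ± 0.28 for IKKβ-null P301S against P301S mice (adjusted p = 0.590).

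Markers of border macrophages were also counted in these nuclei. The 8 markers summed to 240 to 711 CPM in NT, 278 to 632 in P301S, 443 and 559 in IKKβ-null P301S and 223 and 389 in IKKβ-CA P301S mice. Thinned to 1000 UMIs, the 240 microglia-like nuclei with a Gas6 UMI held 825 CPM of these markers and the 4188 without one 368 CPM. With the 150 nuclei that carried 2 or more UMIs of 7 of these markers (all but Stab1) left out, after the data had been seen, the Gas6 difference between IKKβ-CA P301S and NT mice was -1.03 (adjusted p = 0.0612). The part of border macrophages beyond these nuclei was not tested. The 12 neuronal transcripts in microglia-like nuclei stood at 18835 to 23107 CPM in NT, 15647 to 20253 in P301S, 21213 and 22131 in IKKβ-null P301S and 16426 and 18853 in IKKβ-CA P301S mice. Neurons hold Gas6 too, as given above, and the part of these transcripts in the Gas6 values was not tested.

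Pros1, the ligand for Mertk and Tyro3, was the second most frequent member in microglia-like nuclei, with 99 to 636 UMIs per mouse. It stood at 398, 314, 208 and 196 TMM-scaled CPM in NT and at 276, 352 and 332 in P301S mice. The IKKβ-null P301S mice held 265 and 276 and the IKKβ-CA P301S mice 395 and 321. The NT mice alone spanned most of this range, and they fell apart by line: the 2 of the floxed line were above the 2 of the active line. Pooled over lines no difference passed, from -0.26 ± 0.22 (IKKβ-null P301S against P301S, adjusted p = 0.741) to 0.38 ± 0.20 (IKKβ-CA P301S against NT, adjusted p = 0.419, edgeR). Within the active line, compared after the data had been seen, Pros1 rose by 0.82 ± 0.18 from NT to IKKβ-CA P301S mice (n = 2 and 2, edgeR adjusted p = 0.0106, beside the 2.25% of genes that passed there). The 2 NT mice of that line were the lowest of all mice, and the TMM-scaled IKKβ-CA values lay within the NT range over both lines. The single P301S mouse of the active line was 0.72 above NT, a value of 1 mouse with no test. Within the floxed line the IKKβ-null P301S mice were at -0.38 ± 0.17 against NT (adjusted p = 0.458).

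**Figure D4:**
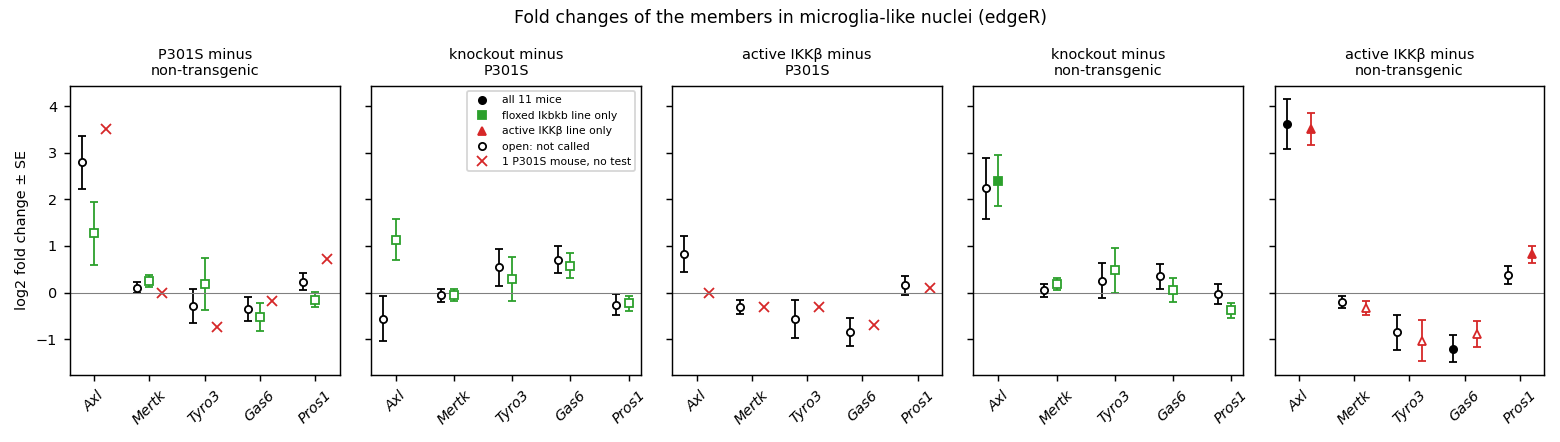
Log2 fold change with its SE of the 5 members in microglia-like nuclei in each comparison, from all 11 mice (black), the floxed line (green squares) or the active line (red triangles), filled where the call passed. Crosses mark active-line comparisons with its single P301S mouse, drawn with no SE and no test. The filled points of the all-mice fit are Axl (3.62) and Gas6 (-1.21) for IKKβ-CA P301S against NT, and in the active line Axl lies at 3.50 for IKKβ-CA P301S against NT.

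Nuclei with an Axl UMI were also counted one by one, with every nucleus thinned to 1000 UMIs and shallower nuclei left out. They made up 1.32, 0, 1.13 and 1.52% of microglia-like nuclei in NT mice, where 0 of 288 nuclei allow a share of up to 1.04%. The share was 1.19, 2.17 and 7.60% in P301S, 3.77 and 1.60% in IKKβ-null P301S and 7.41 and 10.2% in IKKβ-CA P301S mice. In excitatory neuron-like nuclei of the same mice, thinned alike, it was 0 to 0.112%, and in astrocyte-like nuclei 3.75 to 6.68%. Every share in microglia-like nuclei other than the 0 of 1 NT mouse was above the excitatory ones. The NT shares above 0 rest on 3, 3 and 5 nuclei with Axl. Median depths before thinning were 9092 to 14610 UMIs in excitatory and 1440 to 2467 UMIs in microglia-like nuclei. The excitatory shares are therefore no matched background for RNA from other cells, whose part was not tested. IKKβ-CA P301S and NT mice differed by 7.83 percentage points (18.7 points without thinning), with p = 0.133 in a two-sided exact permutation test for which 0.133 is the smallest p that 2 against 4 mice allow. The smallest is 0.0571 for 3 against 4 and 0.2 for 2 against 3 mice, so none of the 25 share comparisons, 5 members in 5 contrasts, could have reached 0.05. The share with a Gas6 UMI, 3.24 to 9.34% over the 11 mice, overlapped the 2.52 to 4.01% of excitatory neuron-like nuclei of NT mice, and no order of the genotypes was read from it.

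The 211 microglia-like nuclei with an Axl UMI held more RNA of the DAM genes than the 4217 without one. Over the 14 DAM genes found, Axl not among them, the sum was 2948 CPM in nuclei with Axl and 1374 CPM in those without, all mice pooled. In P301S mice it was 5667 against 1149 CPM, 5714 against 1744 CPM and 4927 against 2523 CPM, from 3, 7 and 55 nuclei with Axl. In the IKKβ-CA P301S mice it was 1235 against 928 CPM and 1767 against 1316 CPM, from 51 and 60 nuclei. The nuclei with Axl were thus higher in each of these 5 mice, by 4.93, 3.28 and 1.95-fold in P301S and by 1.33 and 1.34-fold in IKKβ-CA P301S mice. The IKKβ-null P301S mice gave 4238 against 1466 CPM and 1667 against 995 CPM, from 21 and 3 nuclei. Thinned to 2000 UMIs the folds were 7.43, 2.64 and 1.72 in P301S mice, from 1, 7 and 67 nuclei with Axl. In IKKβ-CA P301S mice they were 1.51 and 1.77, from 80 and 90 nuclei. These groups thus overlapped at that depth, and their difference was not tested. The IKKβ-null folds were 2.38 and 5.30, from 31 and 6 nuclei. The NT mice at that depth gave 3500 against 900, 0 against 1147, 0 against 852 and 1667 against 659 CPM. These NT values rest on 1, 1, 1 and 3 nuclei with Axl, and those at 0 CPM go the other way.

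Among single DAM genes, Apoe, a lipid carrier, stood at 891 CPM in nuclei with Axl and 311 CPM in those without, and Myo1e, a myosin of phagocytic cups, at 427 and 168 CPM. Lpl, a lipase, stood at 99.5 and 16.4 CPM, Itgax, an integrin, at 90.0 and 17.3 CPM, Lgals3, a lectin of damaged lysosomes, at 61.6 and 6.17 CPM, and Gpnmb at 52.1 and 8.77 CPM. Trem2, itself a lipid receptor, stood at 175 and 171 CPM. Cst7 stood at 4.74 and 4.03 CPM, from 1 UMI in nuclei with Axl. With nuclei thinned to 2000 UMIs, Cst7 was at 19.1 and 7.93 CPM, from 11 UMIs in those with Axl. Igf1 stood at 14.2 and 17.3 CPM, from 3 UMIs in nuclei with Axl, but thinned to 2000 UMIs at 50.3 and 17.5 CPM. Of the other TAM genes, Mertk stood at 1882 CPM with Axl and 1994 CPM without, Pros1 at 389 and 296 CPM, Gas6 at 33.2 and 58.1 CPM and Tyro3 at 9.48 and 14.5 CPM. Mertk was lower in nuclei with Axl in NT (909 against 1980 CPM, from 11 nuclei with Axl), P301S (1938 against 2201 CPM) and IKKβ-null P301S mice (1833 against 1993 CPM) and higher in IKKβ-CA P301S mice (1955 against 1788 CPM), differences that were not tested. Apart from these Mertk values, all mice are pooled, so that differences between genotypes enter them.

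**Figure D5:**
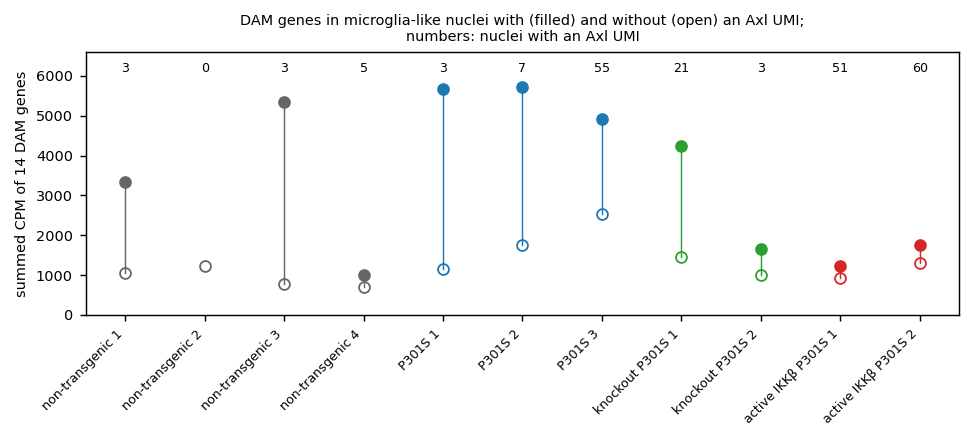
Summed CPM of 14 DAM genes in microglia-like nuclei with an Axl UMI (filled) and without one (open) for each mouse, nuclei thinned to 1000 UMIs, with the number of Axl-positive nuclei at the top. The filled point is above the open one in each mouse that has both, for example at 5714 against 1744 CPM in the second P301S mouse and at 1235 against 928 CPM in the first IKKβ-CA P301S mouse.

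In all, 7 lists of genes around the TAM receptors were set beside the members in microglia-like nuclei. Over all genes 3.71% passed between IKKβ-CA P301S and NT mice and 1.48% between IKKβ-CA P301S and P301S mice, the background for the counts that follow. List genes were tested in the main fit only, without line, thinning or a mouse left out. In Cd300lf, Lrp1, Src and Rxrg the NT mice of the active line were nearer the IKKβ-CA mice, also of that line. This was not so in Adam17, Itgax or Myo1e, and the part of line was not tested. Cd300lf, Rxrg and Itgax passed the low-count filter only through mice with the tau transgene. Of 16 tested genes of other phosphatidylserine receptors and bridging proteins, Cd300lf rose between IKKβ-CA P301S and NT mice and Lrp1 fell (median log2 fold change over the list 0.05, over all genes -0.01). Cd300lf, a phosphatidylserine receptor of myeloid cells, stood at 0, 3.56, 6.13 and 8.41 CPM in NT and at 33.5 and 55.4 CPM in IKKβ-CA P301S mice, with no overlap (3.07 ± 0.50, edgeR adjusted p = 0.000527). Lrp1, an endocytic receptor for apolipoprotein E and for tau, stood at 490, 422, 292 and 380 CPM in NT and at 210 and 213 CPM in IKKβ-CA P301S mice, again with no overlap (-0.93 ± 0.18, adjusted p = 0.00284). Lrp1 also fell against P301S mice, which held 323, 455 and 365 CPM (-0.87 ± 0.18, adjusted p = 0.0139). The IKKβ-null P301S mice, at 444 and 512 CPM, were in the upper part of the range.

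Of 3 tested sheddases and regulators, Adam17, the protease that cleaves Axl and Mertk from the cell surface, rose. It stood at 174, 151.5, 161.5 and 154 CPM in NT, at 191, 216 and 247 CPM in P301S, at 141 and 167 CPM in IKKβ-null P301S and at 289 and 251 CPM in IKKβ-CA P301S mice (0.73 ± 0.14 against NT, edgeR adjusted p = 0.00383). Every P301S and IKKβ-CA mouse was above every NT and IKKβ-null mouse. Of 21 tested genes of TAM signalling and engulfment, 1 rose, the kinase Src (1.16 ± 0.25 against NT, edgeR adjusted p = 0.00733, and 1.26 ± 0.26 against P301S, adjusted p = 0.0092). It held 20.2 and 30.3 CPM in the NT mice of the floxed line and 51.1 and 53.3 CPM in those of the active line. The IKKβ-CA P301S mice, also of the active line, held 89.0 and 93.9 CPM. Grb2, Rac1, Dock2, Elmo1 and the others of that list did not pass, and its median was 0.05.

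Of 8 tested nuclear receptors and factors known to act on Mertk expression, Rxrg, a retinoid X receptor, had the largest rise among the pathway genes that passed. It stood at 2.52, 3.56, 10.2 and 12.6 CPM in NT, 20.7, 6.59 and 33.4 CPM in P301S, 11.5 and 4.11 CPM in IKKβ-null P301S and 219.5 and 229.6 CPM in IKKβ-CA P301S mice. The IKKβ-CA mice were far above all others, by 4.79 ± 0.35 against NT (edgeR adjusted p = 1.00e-08) and 3.24 ± 0.30 against P301S mice (adjusted p = 6.64e-07). Mertk itself did not pass in either comparison. No gene of the scramblase and flippase list (9 tested), the vitamin K cycle (2 tested, the pathway that carboxylates Gas6 and protein S) or the feedback list (7 tested, Socs and interferon receptor genes) passed in any of the 5 comparisons. No gene of the 7 lists passed between P301S and NT, IKKβ-null P301S and P301S, or IKKβ-null P301S and NT mice, where 0.0449%, 0% and 0% of all genes passed.

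The DAM list had a median log2 fold change of 1.399 between P301S and NT mice over its 11 tested genes, beside -0.00039 over all genes. Of these, Myo1e rose (1.87 ± 0.31, edgeR adjusted p = 0.0148), from 95.9, 89.1, 59.3 and 46.3 CPM in NT to 142, 226 and 376 CPM in P301S mice, with no overlap. Between IKKβ-CA P301S and NT mice the median was 0.44, and Myo1e (1.26 ± 0.33, adjusted p = 0.0352) and Itgax (3.71 ± 0.71, adjusted p = 0.00289) rose. Itgax held 2.52 to 6.13 CPM in NT and 28.0 and 75.0 CPM in IKKβ-CA mice, and 50.7 CPM in the third P301S mouse, beside 2.58 and 16.5 CPM in the other P301S mice. Between IKKβ-CA P301S and P301S mice the median was -0.61, and Ank, a pyrophosphate transporter, fell by 1.44 (SE 0.24, adjusted p = 0.00133), to 93.3 and 124.9 CPM from 199, 250.3 and 399.8 CPM. Axl and Itgax were thus both high in the IKKβ-CA mice, in which Ank was low. The summed DAM level was 674 to 1196 CPM in NT, 1182 to 2688 CPM in P301S, 962 and 1707 CPM in IKKβ-null P301S and 988 and 1576 CPM in IKKβ-CA P301S mice. The third P301S mouse, with Axl at the level of the IKKβ-CA mice, had the highest DAM sum, 2688 CPM. It also had the lowest level of the 12 neuronal transcripts (15647 CPM), whose part in the DAM values was not tested.

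Outside microglia, no member passed between genotypes in 99 tests over 8 other cell types. The share of all genes that passed in those types was 0.0129% for P301S against NT, 0.00215% for IKKβ-null P301S against P301S and 0.00323% for IKKβ-CA P301S against P301S, so at most 12 of 92927 tests, and DESeq2 passed no member. At an unadjusted p under 0.05 there were 10 of the 99 member tests (5, 3 and 2 in the 3 comparisons), beside 5.96% of all gene tests (3.90, 8.37 and 5.60%). Axl in oligodendrocyte, striatal projection neuron and inhibitory neuron-like nuclei, Pros1 and Gas6 in mural-like nuclei and Tyro3 in mural and fibroblast-like nuclei were too scarce to be tested.

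Pros1 in oligodendrocyte-like nuclei had the lowest unadjusted p of these. It held 9.74, 9.61, 10.7 and 9.18 CPM in NT and 13.01, 14.5 and 19.5 CPM in P301S mice, and 16.4 and 12.7 CPM in IKKβ-null and 13.2 and 14.8 CPM in IKKβ-CA P301S mice. All 7 mice with the tau transgene were above all 4 NT mice, yet the difference of 0.69 ± 0.18 between P301S and NT did not pass over all genes (n = 3 and 4, edgeR adjusted p = 0.928). The share of all genes that separate the mice in this way was not counted. Outside microglia-like nuclei IKKβ-null and IKKβ-CA mice were not tested against NT mice.

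Mertk in fibroblast-like nuclei showed a like separation, with the same limits: 38.1, 54.7, 42.6 and 31.7 CPM in NT against 86.1, 65.6 and 65.5 CPM in P301S mice. The IKKβ-null P301S mice held 88.6 and 80.1 CPM and the IKKβ-CA P301S mice 84.3 and 94.6 CPM. Between P301S and NT the difference was 0.73 ± 0.26 and did not pass (edgeR adjusted p = 0.9998). These values rest on 220 UMIs over all mice, from 27 to 138 nuclei per mouse. In mural-like nuclei Mertk held 165, 103, 180 and 215 CPM in NT and 250.4, 271 and 284 CPM in P301S mice, which do not overlap, but the IKKβ-null (235 and 151 CPM) and IKKβ-CA mice (161 and 275 CPM) lay across the range of both. In oligodendrocyte precursor-like nuclei the difference of 0.85 ± 0.32 came from 1 P301S mouse, at 544 CPM beside 126 and 147 CPM for the other P301S mice and 122 to 180 CPM for NT, and without it was -0.14. The same mouse was highest for Mertk in astrocyte-like nuclei, at 2128 CPM where the other 10 mice held 1249 to 1625 CPM.

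In IKKβ-null P301S mice Mertk was higher than in P301S mice in oligodendrocyte (0.90 ± 0.28, edgeR adjusted p = 0.287), striatal projection neuron (0.97 ± 0.31) and excitatory neuron-like nuclei (0.74 ± 0.30), and none of these passed. Striatal levels were low, at 4.22 and 5.33 CPM in IKKβ-null and 1.59 to 2.88 CPM in P301S mice. Excitatory levels were 3.23 and 4.38 CPM against 1.68 to 3.11 CPM. The part of RNA from other cells in these values was not tested. In oligodendrocyte-like nuclei the IKKβ-null mice held 21.3 and 11.5 CPM and the P301S mice 11.8, 5.80 and 9.94 CPM, so 1 mouse stood above all others. Tyro3 in excitatory neuron-like nuclei was at 70.4 and 57.4 CPM in IKKβ-CA P301S and at 47.6, 45.7 and 51.8 CPM in P301S mice (0.40 ± 0.16, did not pass), while the NT mice held 42.1, 47.1, 58.4 and 66.4 CPM, the 2 of the active line being the higher ones. Gas6 in striatal projection neuron-like nuclei differed by 0.44 ± 0.17 in the same comparison, and Pros1 in astrocyte-like nuclei by 0.49 ± 0.23 between P301S and NT, and neither passed.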

How the data were processed

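Nuclei were isolated from frozen cortex and sequenced with 10x Chromium 3′ kits, version 3. Per the labels and the study's methods, the authors aligned reads to mm10 with Cell Ranger 3.1.0, counted pre-mRNA and deposited, for each mouse, raw UMI counts per gene and nucleus. From these counts, 112539 of 114118 barcodes were kept, those in which 300 to 8000 genes were detected and mitochondrial UMIs did not exceed 5%, and 9474 (8.42%) were removed as predicted doublets by simulated neighbours. The rest were clustered at Leiden resolution 0.1 (20 clusters, 11 named types) and 1 (38 clusters) on 15 components of 2000 variable genes, without the 5 members, and named from marker genes. The members and lists, DAM, pathway and marker genes, were chosen with earlier results of these data known. Named beside the members were list genes called in microglia-like nuclei and, for each member, the 5 genes most correlated over clusters.

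UMI counts were summed per mouse and type (at least 20 nuclei) and tested over all genes with edgeR 4.0.16 in R 4.3.3 (quasi-likelihood, TMM, filterByExpr, 1 term per genotype), calling a Benjamini-Hochberg adjusted p below 0.05 with an absolute log2 fold change above 0.1. An SE is the absolute fold change divided by the root of F. Alternatives were DESeq2 1.42.0, its size factors, no low-count filter, doublets kept, thinning, covariates for line, age and title number, only the 2 groups compared, leaving out each mouse and, added after seeing the data, single lines and nuclei left out. The script was checked on simulated microglia-like counts with 200 genes changed, tested for IKKβ-CA P301S against P301S mice. It recovered 56 of 110 changes of 2-fold (50.9%) and 87 of 90 of 4-fold, with 9 false calls among 152. Changes near 2-fold can thus be missed. Steps between types used sign-flip tests on log2(CPM + 1), and shares exact permutation tests, in Python 3.11.15 with scipy 1.17.1. Replicates are separate mice. Intervals cover counting error only. In 3′ nuclear counts levels are not comparable between genes. Same-numbered mice did not deviate together, so the numbers were not used as pairs.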

Additional observations from a re-analysis of the deposited data

Results flagged for a closer look

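In NT mice, 45 sets of 4 values (5 genes in 9 cell types) were screened for a mouse far from the other 3 (a gap to the nearest value above Dixon's critical share of the range), which chance alone gives in about 1 of 20 sets. It was met 2 times. Axl in oligodendrocyte-like nuclei stood at 2.05 CPM in the third NT mouse and at 0.483 to 0.650 CPM in the others, all of it from a few UMIs, and Axl was too scarce there to be tested between genotypes. Tyro3 in inhibitory neuron-like nuclei stood at 23.3 CPM in the fourth NT mouse and at 10.8 to 11.9 CPM in the others. That mouse also gave 27.95% of the nuclei of 1 inhibitory cluster, led by Cpa6, Lgr5 and Ptpro.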

How the results depend on the processing

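The Axl rise between IKKβ-CA P301S and NT mice in microglia-like nuclei was called under every alternative run, at 3.35 to 3.80 with a mouse left out. The other calls moved with single libraries or settings. With all genes in place of the low-count filter, members called were 1 and not 0 for P301S against NT (genes called 120, not 4), 1 and not 0 for IKKβ-CA against P301S (344, not 132), 1 and not 0 for IKKβ-null P301S against NT (37, not 0), 2 again for IKKβ-CA P301S against NT (551, not 330), 41 genes and not 0 for IKKβ-null against P301S, and 1 member each in the other types for P301S against NT (Mertk in oligodendrocyte precursor-like nuclei) and IKKβ-null against P301S (Mertk in oligodendrocyte-like nuclei). Those 2 calls in the other types are given without the share of all genes called there, so they are no result about the members. With the filter kept, the Mertk difference in oligodendrocyte precursor-like nuclei ran down to -0.14 with a mouse left out. With line as a covariate, 1 member was called for P301S against NT (30 genes), 1 for IKKβ-null P301S against NT (3 genes), 1 for IKKβ-CA P301S against NT (200 genes) and 74 genes for IKKβ-CA against P301S. The active line has a single P301S mouse, so its fit, which assumes that mouse to vary like the others, gives no replicated test of P301S, and what it put past the threshold (1 member and 109 genes for P301S against NT, 72 genes for IKKβ-CA against P301S) is not taken as calls. Within the floxed line 8 genes were called for P301S against NT, 4 for IKKβ-null against P301S, and 14 with 1 member for IKKβ-null P301S against NT. P301S against NT gave 2 genes with doublets kept, 9 with only these groups fitted, 7 thinned and 10 without nuclei with border macrophage markers, IKKβ-null against P301S 2 with only these groups fitted, and IKKβ-CA P301S against NT 197 thinned. Thinning or leaving out border nuclei left 1 member called in the last comparison.

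Axl in P301S against NT was called with no filter (2.80, adjusted p = 3.40e-15) and with line as a covariate (2.87, adjusted p = 0.00143), and when any 1 of the IKKβ-null or IKKβ-CA mice was left out (2.78, adjusted p = 0.037 to 0.043). In the active line it was 3.50, a value of 1 P301S mouse with no call. It ran from 1.11 to 3.11 with a mouse left out. Gas6 in IKKβ-CA P301S against NT lost its call with line as a covariate (-0.96), thinned (-1.12), without border nuclei (-1.03) and in the active line (-0.89), and ran from -1.36 to -0.95 with a mouse left out. Pros1 in the same comparison, not called over all mice, was called in the active line. The replicate block groups mice by title number (22 pairs, median correlation of deviations 0.009, range -0.10 to 0.17). In the active line, NT and IKKβ-CA P301S mice of the same number were also of the same age, 10.85 or 9.8 months. With this block, Axl was 3.64 and Gas6 -1.19 (edgeR adjusted p = 0.0253) for IKKβ-CA P301S against NT. Axl in P301S against NT was 2.58 (edgeR adjusted p = 0.161), and no member's call changed.

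Turned in sign, none of them called in either form, were Axl for IKKβ-null against P301S with line (0.80) or age (0.22) as a covariate, in the floxed line (1.14) and with a mouse left out (-1.50 to 1.14, above 0 without the third P301S mouse), Axl for IKKβ-CA against P301S in the active line (-0.0013), Mertk for P301S against NT in the active line (-0.017), Mertk for IKKβ-null against P301S with age (0.019) or with a mouse left out (-0.16 to 0.056, above 0 without the first P301S or the first IKKβ-null mouse), and Mertk for IKKβ-null P301S against NT with a mouse left out (-0.066 to 0.16, below 0 without the second IKKβ-null mouse). So were Tyro3 (0.18) and Pros1 (-0.15) for P301S against NT in the floxed line, Pros1 for IKKβ-CA against P301S with a mouse left out (-0.0040 to 0.28, below 0 without the first IKKβ-CA mouse), Pros1 for IKKβ-null P301S against NT with doublets kept (0.014), with age (0.10) or with a mouse left out (-0.17 to 0.17, above 0 without the first NT, the second NT or the first IKKβ-null mouse), and Mertk in oligodendrocyte precursor-like nuclei for P301S against NT in the active line (-0.23) or with a mouse left out (-0.14 to 1.21, below 0 without the first P301S mouse). The share of nuclei with a Gas6 UMI, thinned to 500 UMIs, differed by 0.92 points for P301S against NT and by -0.21 points for IKKβ-null against P301S, and with a mouse left out by -1.84 to 0.15 points for P301S against NT (above 0 without the second NT mouse), and the Axl share by -2.20 to 1.004 points for IKKβ-null against P301S (above 0 without the third P301S or the second IKKβ-null mouse). Of the other members' shares, thinning to 500 UMIs turned Pros1 for P301S against NT (-0.40 points, against 3.65), Tyro3 for IKKβ-CA against P301S (0.26, against -0.58) and Mertk for IKKβ-null against P301S (1.16, against -1.94). Without thinning, Mertk turned for IKKβ-null against P301S (3.76), IKKβ-CA against P301S (1.85) and IKKβ-CA P301S against NT (3.29), and Pros1 for IKKβ-null against P301S (1.97) and against NT (5.15). With a mouse left out, 6 of the 15 contrasts of these 3 members turned.

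With a mouse left out, members called ran from 0 to 1 for P301S against NT and for IKKβ-CA against P301S and from 1 to 2 for IKKβ-CA P301S against NT. Genes called ran from 0 (without the first NT or the third P301S mouse) to 29 (without the first P301S mouse) for P301S against NT, 0 to 2 for IKKβ-null against P301S and against NT, 63 (without the second P301S mouse) to 201 (without the third) for IKKβ-CA against P301S and 163 (without the second IKKβ-CA mouse) to 421 (without the third P301S mouse) for IKKβ-CA P301S against NT. Axl for IKKβ-CA against P301S ran from 0.50 to 2.50. Steps between cell types that passed ran from 11 to 16 (12 with all mice, 16 thinned), and that of Mertk from endothelial to fibroblast-like nuclei missed the threshold in 8 of 11 such fits. The causes were not tested. Depth limits Axl, Tyro3 and Gas6 in microglia-like nuclei, counted as 2 to 176, 4 to 25 and 12 to 117 UMIs per mouse.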

Other observations

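Over the 38 fine clusters, all mice pooled, the genes whose log2(CPM + 1) followed each member most closely were listed among 14441 genes that reached 10 CPM in at least 1 cluster, as a description over clusters that share mice and depth. Axl was closest to Oaf (Pearson r = 0.91) and Acsf2 (0.91), followed by Dido1 (0.90), Bcl2l12 (0.89) and Gna13 (0.89). Mertk was closest to Tlr3, a receptor for double-stranded RNA (0.95), and Crlf3 (0.95), then to Cst3 (0.94), Sat1 (0.93) and Zfp36l2 (0.92). Tyro3 was closest to the activity-regulated synaptic genes Arc (0.81) and Homer1 (0.80), then to Mast3 (0.79), Nrg1 (0.77) and Tmem121b (0.77), although its highest level was in oligodendrocyte-like nuclei. Gas6 was closest to Tuft1 (0.80), Btg4 (0.75), 4833427G06Rik (0.74), Rgl2 (0.74) and Plekhb2 (0.74). Pros1 was closest to Ccnd3, Heatr5a, Plgrkt, Kpna4 and Irgm2. Among the members, Axl and Mertk correlated at 0.85, Mertk and Pros1 at 0.80 and Axl and Pros1 at 0.73, whereas Tyro3 was negatively correlated with the other 4, from -0.50 to -0.27.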
